A study of Mus musculus with 6 samples.

Results

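Solute carriers are membrane proteins that move nutrients, metabolites and ions across the cell surface and the membranes of organelles. They were examined here in mouse hematopoietic stem cells, the scarce marrow cells from which every blood lineage is renewed. The members are the genes whose symbol begins with Slc and a digit and whose mean over the 6 libraries was 2 CPM or more, where CPM is a gene's count relative to the size of its library. Of 375 such symbols among the 24091 genes of the table, 1 was left out by name and is not analysed here, 178 lay below the threshold, and 196 made up the set. The members were thus chosen by their mean count level in these same libraries, and that level is a description. The members just inside it were Slc6a9 at 2.02 CPM, Slc9a7 at 2.11 CPM and Slc4a3 at 2.16 CPM, and the genes just outside were Slc1a1 at 1.96 CPM, Slc35g2 at 1.95 CPM and Slc14a2 at 1.85 CPM. All 196 members had enough counts to be tested.

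The cells carry the label wt and were sorted as lineage-, Sca-1+, c-Kit+, CD150+ and CD48-. The aged group holds 3 libraries from mice of 20 months (aged 1 to aged 3) and the young group 3 libraries from mice of 2 months (young 4 to young 6), with no treatment named. Aged cells were pooled from 4 mice and young cells from 30 mice, and the labels do not say whether these numbers hold for each library. The spread between libraries is therefore a spread between pools and may be partly technical.

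Solute carriers fall into numbered subfamilies that differ in what they carry. Some import glucose, amino acids, nucleosides or lactate at the plasma membrane, the Slc25 subfamily exchanges metabolites across the inner mitochondrial membrane, and the Slc35 subfamily supplies nucleotide sugars to the Golgi. Blood stem cells are known for low mitochondrial activity and a reliance on glycolysis, so glucose and mitochondrial carriers are of long-standing interest in them. The members are described below by substrate, with the aged libraries compared with the young.

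In aged cells 4 carriers rose, and none fell, at an adjusted p under 0.05. They were Slc16a12 of the monocarboxylate carrier family, the vesicular glutamate carrier Slc17a8, the amino acid carrier Slc7a7 and the mitochondrial carrier Slc25a35. Counts were tested with edgeR's quasi-likelihood test and Benjamini-Hochberg adjustment over 13413 genes. These 4 are 2.04% of the members, against 5.76% of all genes tested (4.26% higher and 1.50% lower), so calls were no more common among the carriers than in the table at large. At an unadjusted p under 0.05 there were 28 higher members and 14 lower ones, or 14.3% and 7.14%, against 13.9% and 11.1% of all genes. No member was called lower by edgeR, while DESeq2 called 9 lower and limma-voom 2 (6.90% and 1.77% of all genes); the higher calls were 16 by DESeq2 and 4 by limma-voom (9.36% and 4.32% of all genes). The 3 libraries of each group did not overlap for 40 higher and 23 lower members, or 20.4% and 11.7%, against 19.0% and 17.6% of all genes.

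Upstream sequence is printed for the 3 called carriers with a RefSeq promoter entry, and for Slc38a5, which had the most negative fold change of all members. It is the 250 bases before the most upstream RefSeq start, 5′ to 3′ on the gene's strand (build GRCm38.p6). RefSeq lists 5 starts for Slc7a7, 2 for Slc17a8 and 1 each for Slc16a12 and Slc38a5. Capitals mark an E-box (CACGTG) or a GC box (GGGCGG or CCGCCC). The windows are chr19:34747329-34747578 on the minus strand for Slc16a12, chr10:89621250-89621499 on the minus strand for Slc17a8, chr14:54417945-54418194 on the minus strand for Slc7a7 and chrX:8271131-8271380 on the plus strand for Slc38a5.
Slc16a12: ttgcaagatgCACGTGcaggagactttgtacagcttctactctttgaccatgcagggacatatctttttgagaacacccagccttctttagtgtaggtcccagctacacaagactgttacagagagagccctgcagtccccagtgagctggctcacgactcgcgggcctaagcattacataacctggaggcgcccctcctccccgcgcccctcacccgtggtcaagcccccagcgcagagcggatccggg
Slc17a8: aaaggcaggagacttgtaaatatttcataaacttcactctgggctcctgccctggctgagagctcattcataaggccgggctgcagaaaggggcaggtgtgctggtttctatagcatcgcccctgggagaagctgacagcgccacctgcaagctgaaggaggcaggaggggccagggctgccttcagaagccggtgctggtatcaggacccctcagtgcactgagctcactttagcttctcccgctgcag
Slc7a7: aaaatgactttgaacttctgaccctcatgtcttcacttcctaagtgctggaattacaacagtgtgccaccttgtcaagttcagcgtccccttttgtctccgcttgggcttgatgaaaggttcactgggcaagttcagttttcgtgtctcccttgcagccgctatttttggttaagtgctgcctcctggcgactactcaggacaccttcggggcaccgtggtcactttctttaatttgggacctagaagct
Slc38a5: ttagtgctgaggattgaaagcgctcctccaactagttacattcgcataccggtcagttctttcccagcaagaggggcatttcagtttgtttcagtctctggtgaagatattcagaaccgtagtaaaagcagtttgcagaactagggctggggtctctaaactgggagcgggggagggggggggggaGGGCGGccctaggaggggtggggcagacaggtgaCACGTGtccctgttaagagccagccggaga
The Slc16a12 window held 1 E-box and 11 CpG dinucleotides, and the Slc38a5 window held 1 E-box, 1 GC box and 8 CpG. In the windows of Slc17a8, with 5 CpG, and Slc7a7, with 7, none of the searched motifs was found. The windows before the other starts of these genes were not searched.

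RefSeq promoters of this length, before the most upstream start of each gene, were matched by symbol for 150 members and compared with those of 27025 genes. Each motif was searched on both strands, and none of the 5 contains another. GC boxes stood in 64.0% of the members' windows and in 33.0% of all windows. The E-box stood in 13.3% of members and 6.0% of all, and the median number of CpG was 14 in members and 6 in all windows. A TATA box (TATAAA or TTTATA) was found in 5.3% of members and 13.0% of all, a CCAAT box (CCAAT or ATTGG) in 32.7% and 34.5%, and a GATA motif (AGATAA or TTATCT) in 7.3% and 10.2%. The 27025 genes include ones with few or no counts in these cells, and a match is only a match of letters.

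Slc16a12, at chr19:34668406-34747111 on the minus strand (mm10, as are all gene positions here), encodes a monocarboxylate carrier family member known for moving creatine. It stood at 87.6, 55.9 and 69.9 CPM in aged 1, 2 and 3, and at 9.94, 6.43 and 7.32 CPM in young 4, 5 and 6. Every aged library was far above every young one. The gene rose 9.04-fold, from 7.90 ± 1.82 to 71.1 ± 15.9 CPM (SD, n = 3 each), a log2 fold change of 3.18 ± 0.26 (SE) with an adjusted p of 0.00381 by edgeR. Leaving out any 1 of the 6 libraries kept the call.

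Slc17a8, at chr10:89574020-89621249 on the minus strand, encodes VGLUT3, which loads glutamate into vesicles. Its levels were 22.5, 18.5 and 49.3 CPM in aged 1, 2 and 3 and 2.86, 2.19 and 2.41 CPM in young 4, 5 and 6. The young libraries were close together, and aged 3 stood well above the other two aged libraries. The rise was 12.1-fold, from 2.49 ± 0.342 to 30.1 ± 16.8 CPM (SD, n = 3 each), with a log2 fold change of 3.60 ± 0.43 (SE) and an edgeR adjusted p of 0.0108. Without aged 3 the rise was 8.26-fold (adjusted p = 0.0207). The call was lost without young 5 (adjusted p = 0.0619) or young 6 (adjusted p = 0.0549).

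Slc7a7, at chr14:54369442-54417702 on the minus strand, encodes the light chain y+LAT1 of a carrier that exchanges cationic for neutral amino acids. It was measured at 22.2, 14.2 and 19.4 CPM in the aged and at 5.57, 9.17 and 6.53 CPM in the young libraries, in numerical order. The groups did not overlap. It rose 2.62-fold, with a log2 fold change of 1.39 ± 0.28 (SE) and an adjusted p of 0.0388 by edgeR. Slc25a35, at chr11:68968131-68972515 on the plus strand, encodes a mitochondrial carrier to which no substrate is assigned here. Its levels were 20.6, 18.4 and 23.8 CPM in aged and 5.57, 10.3 and 9.29 CPM in young libraries, again without overlap. It rose 2.49-fold, with a log2 fold change of 1.31 ± 0.27 (SE) and an edgeR adjusted p of 0.0420. For both genes the call survived the removal of 1 of the 6 libraries only, young 4, where Slc7a7 had an adjusted p of 0.0459 and Slc25a35 of 0.0326; in the other 5 runs it ran from 0.0786 to 0.136 for Slc7a7 and from 0.0876 to 0.156 for Slc25a35. Slc7a7 overlaps Oxa1l and Slc25a35 overlaps Rangrf on the opposite strand, and the library kit does not mark strand, so reads over shared bases cannot be told apart.

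**Figure D1:**
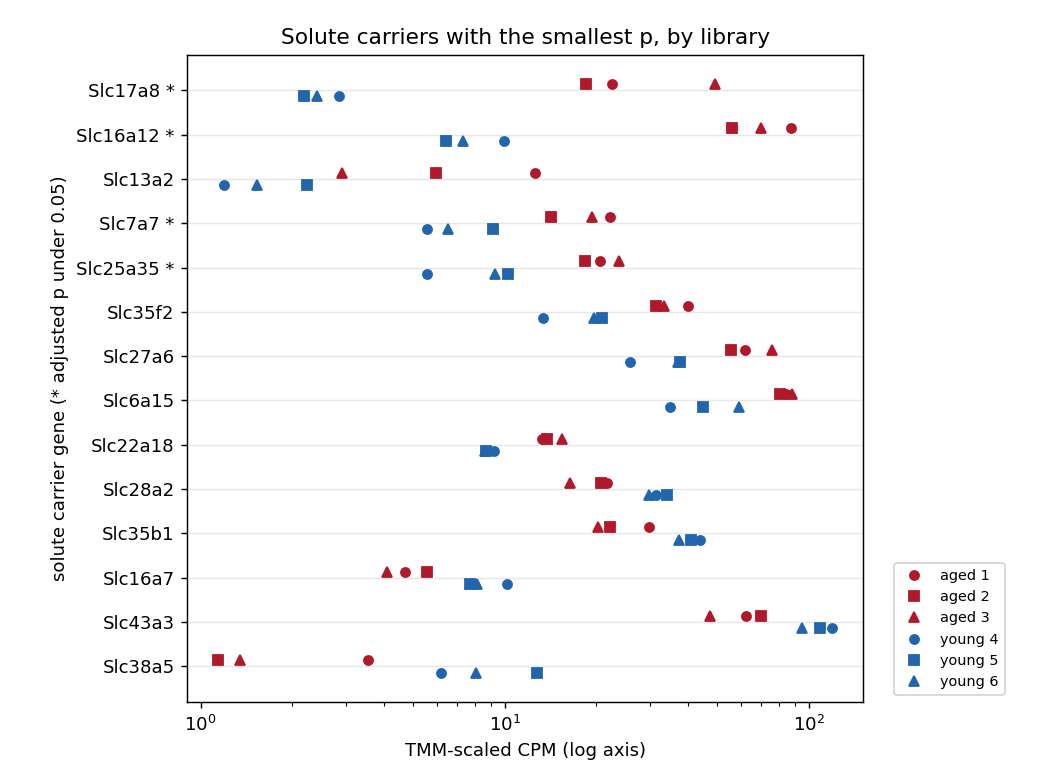
TMM-scaled CPM on a log axis of the 4 called carriers (marked with an asterisk) and the 10 uncalled carriers with the smallest p, 1 point for each library, aged in red and young in blue. Slc16a12 and Slc17a8 have the widest gaps, with all aged libraries at 18.5 CPM or more and all young ones at 9.94 CPM or less.

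None of the 12 carriers of sugars and inositol was called. Their median log2 fold change was 0.61, against 0.04 over all genes, and 9 of the 12 were positive. Slc2a3 encodes GLUT3, a high-affinity glucose importer. It stood at 321, 332 and 397 CPM in aged and at 134, 213 and 242 CPM in young libraries. The groups were apart, with a log2 fold change of 0.84 ± 0.25 (SE) and an adjusted p of 0.0971 by edgeR. Slc2a1, which encodes the widespread glucose importer GLUT1, stood at 70.2, 49.6 and 71.8 CPM in aged and at 17.0, 51.8 and 50.1 CPM in young libraries. Here the groups overlapped, young 4 was far below the rest, and the adjusted p was 0.322. Slc50a1, a sugar carrier of the SWEET family, stood at 177, 189 and 213 CPM in aged and 130.5, 128 and 143 CPM in young libraries, with a log2 fold change of 0.53 and an adjusted p of 0.0942. Without young 4 the median of the 12 was 0.31.

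Per kb of gene length, Slc2a3 exceeded Slc2a1 in every library. The ratio of CPM per kb was 1.81, 2.65 and 2.19 in aged and 3.11, 1.62 and 1.91 in young libraries, so the groups overlapped; it was 1 of 7 ratios between carriers that were computed, all picked after their values were seen. The 3 carriers of sugar phosphates were all positive. Among them Slc37a3 stood at 4.22, 5.31 and 7.66 CPM in aged and 0.398, 3.14 and 1.45 CPM in young libraries, with an adjusted p of 0.141.

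Amino acid, peptide and amine carriers numbered 28, with Slc7a7 the only call. Of these, 19 had a positive fold change, and the median was 0.26, or -0.01 without young 4. Slc18a2, which encodes the vesicular monoamine carrier VMAT2, had the highest level per kb of the group, 108 CPM per kb. It stood at 493, 465 and 491 CPM in aged and 309, 332 and 371 CPM in young libraries, with groups apart and an adjusted p of 0.108. The neutral amino acid importer Slc6a15 stood at 84.1, 80.5 and 88.3 CPM in aged and 35.1, 45.1 and 59.2 CPM in young libraries, with a log2 fold change of 0.86 and an adjusted p of 0.0635. In these last genes every aged library was above every young one.

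Slc38a5, a glutamine and neutral amino acid carrier known from red cell precursors, went the other way. It stood at 3.55, 1.14 and 1.35 CPM in aged and at 6.20, 12.8 and 8.07 CPM in young libraries. All young libraries exceeded all aged ones, with a log2 fold change of -2.17 ± 0.51 (SE) and an adjusted p of 0.0546 by edgeR, just above the threshold. It was called lower without young 4 (-2.40, adjusted p = 0.0420) and without aged 1 (-2.86, adjusted p = 0.0404). With any other library left out it was not called, at edgeR adjusted p from 0.108 to 0.201. The glutamine carrier Slc1a5 differed widely within groups, at 386, 173 and 267 CPM in aged and 58.9, 272 and 307 CPM in young libraries, with an adjusted p of 0.698. Slc3a2, the heavy chain that many amino acid exchangers share, was even, at 241, 234 and 253 CPM in aged and 209, 267 and 297 CPM in young libraries (adjusted p = 0.776). The arginine importer Slc7a1 and the glutamine carrier Slc38a2 were not called either, with adjusted p-values of 0.427 and 0.582.

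Carriers of carboxylates, lipids and choline numbered 17, with Slc16a12 the only call and a median log2 fold change of 0.35, or 0.23 without young 4 and 0.14 with trends by GC content and length removed. The lactate and pyruvate carrier Slc16a1 (MCT1) stood at 96.6, 80.3 and 76.2 CPM in aged and 103, 108 and 117 CPM in young libraries, with a log2 fold change of -0.38 and an adjusted p of 0.202. Its relative Slc16a7 (MCT2) stood at 4.70, 5.57 and 4.09 CPM in aged and 10.2, 7.67 and 8.11 CPM in young libraries, with a fold change of -0.85 on the log2 scale and an adjusted p of 0.0857. The lactate exporter Slc16a3 (MCT4) was low, between 0.875 and 6.52 CPM. The family members thus stood on both sides of 0. Of the 8 members grouped as monocarboxylate carriers by family, Slc16a12 among them, 5 were positive.

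Per kb, Slc16a1 and Slc16a12 were near each other in aged cells, at ratios of 0.963, 1.26 and 0.951, and apart in young cells, at 9.01, 14.7 and 14.0. The exact permutation p was 0.100, the smallest that 3 against 3 libraries can give, and 0.233 after adjustment over the 7 ratios. Slc16a12 was already called and the pair was picked after its values were seen, so this p adds no support. Slc27a6, a fatty acid carrier, stood at 62.0, 55.7 and 75.8 CPM in aged and 25.8, 37.7 and 37.3 CPM in young libraries. The groups were apart, with a log2 fold change of 0.94 and an adjusted p of 0.0508, and it was called higher without young 4 (0.76, adjusted p = 0.0441). With any other library left out Slc27a6 was not called, at edgeR adjusted p from 0.102 to 0.191. The dicarboxylate carrier Slc13a2 stood at 12.6, 5.93 and 2.92 CPM in aged and 1.19, 2.24 and 1.53 CPM in young libraries, with an adjusted p of 0.0763. It overlaps Slc13a2os on the opposite strand, whose reads cannot be told apart from its own.

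Nucleoside and nucleobase carriers were few, 5 in all, and had the most negative median, -0.52. None was called in the edgeR fit used throughout. With trends by GC content and length removed, edgeR called Slc43a3 (adjusted p = 0.0205), Slc28a2 (adjusted p = 0.0279) and Slc29a1 (adjusted p = 0.016) lower. That fit called 5.16% of all genes lower. Slc43a3, a purine nucleobase carrier, stood at 62.2, 69.7 and 47.5 CPM in aged and 119.9, 109 and 95.4 CPM in young libraries, with a log2 fold change of -0.86 ± 0.19 (SE) and an adjusted p of 0.0502 by edgeR. The concentrative nucleoside carrier Slc28a2 stood at 21.7, 20.7 and 16.4 CPM in aged and 31.4, 34.2 and 29.9 CPM in young libraries, with a log2 fold change of -0.70 and an adjusted p of 0.0728. For both genes every young library lay above every aged one. Slc29a1 encodes ENT1, the main equilibrative nucleoside carrier. It stood at 106, 95.6 and 104 CPM in aged and 102, 167 and 169 CPM in young libraries, where young 4 lay among the aged libraries (adjusted p = 0.201). Without young 4 it was called lower, at -0.74 with an adjusted p of 0.0200. No other run with a single library left out called it.

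**Figure D2:**
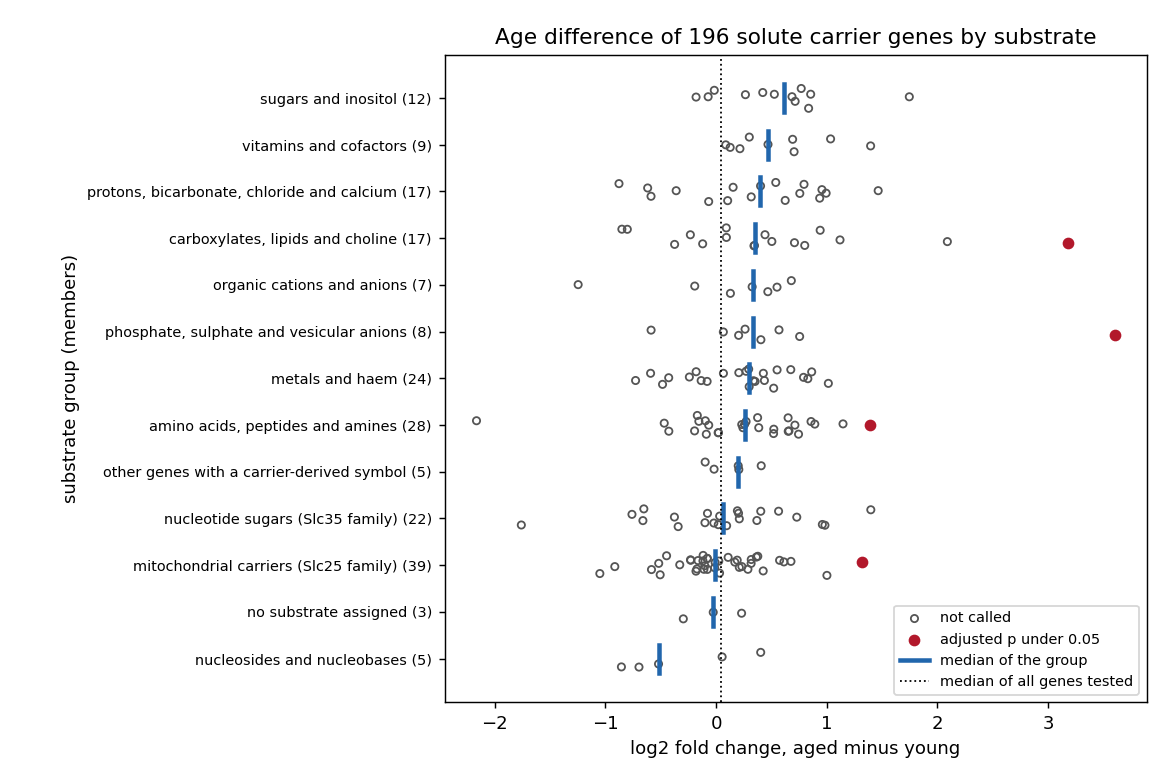
Log2 fold change (aged minus young) of each of the 196 members, 1 point each, by substrate group, with called members filled, the group median as a bar and the median of all genes tested (0.04) as a dotted line. Medians run from -0.52 for nucleosides and nucleobases to 0.61 for sugars and inositol, and the 4 filled points are all to the right.

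Mitochondrial carriers of the Slc25 family were the most numerous group, with 39 members, and centred on 0. Their median log2 fold change was -0.01, with 18 positive and 21 negative, and Slc25a35 was the only call. Of the 8 nucleotide and phosphate carriers, 6 were negative and 3 of these had an unadjusted p under 0.05, where 11.1% of all genes were lower at that p. Slc25a5 encodes ANT2, an exchanger of ADP for ATP, and had the highest level per kb of all members, 1274 CPM per kb. It stood at 1071, 1336 and 1013 CPM in aged and 3054, 1751 and 1646 CPM in young libraries. The groups were apart and young 4 was the highest by far, with a log2 fold change of -0.92 ± 0.29 (SE) and an adjusted p of 0.114 by edgeR, or -0.60 without young 4. Slc25a5 has processed pseudogenes, so its counts are uncertain. Slc25a4, which encodes the exchanger ANT1, stood at 368, 391 and 400.2 CPM in aged and 269.9, 376 and 369.8 CPM in young libraries, with an adjusted p of 0.535.

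The ratio of Slc25a5 to Slc25a4, in CPM per kb, was 3.45, 4.05 and 3.00 in aged and 13.4, 5.52 and 5.28 in young libraries. The groups did not overlap (exact permutation p = 0.100, two-sided, adjusted to 0.233 over the 7 ratios). This pair too was picked after its values were seen, so the p is a description only. The phosphate carrier Slc25a3 stood at 282, 303 and 289 CPM in aged and 506, 377 and 358 CPM in young libraries, with an adjusted p of 0.162. The mitochondrial carriers of haem synthesis were not called, the iron importer Slc25a37 (mitoferrin) with a log2 fold change of -0.18 and the glycine carrier Slc25a38 with -0.01.

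**Figure D3:**
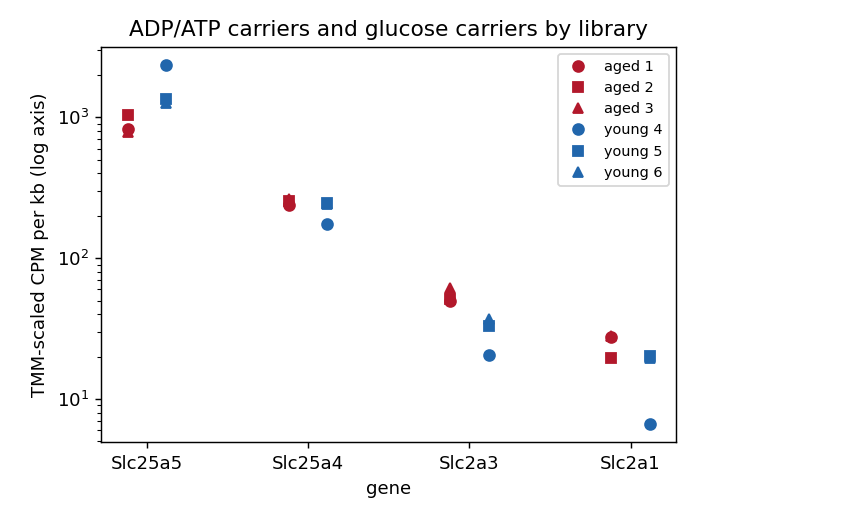
TMM-scaled CPM per kb of gene length, on a log axis, of the ADP/ATP exchangers Slc25a5 and Slc25a4 and the glucose importers Slc2a3 and Slc2a1, 1 point for each library, aged in red and young in blue. Young 4 is the highest library for Slc25a5 and the lowest for the other genes shown.

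Metal and haem carriers numbered 24, with 16 positive, a median of 0.30 and no call. Slc39a1, the zinc importer ZIP1, spread most within a group, at 107, 307 and 232 CPM in aged and 787, 142 and 142 CPM in young libraries. Young 4 alone put the young mean above the aged one, and the log2 fold change went from -0.73 (adjusted p = 0.541) to 0.59 (adjusted p = 0.399) without it. The haem carrier Slc48a1 stood at 258, 126 and 187 CPM in aged and 49.2, 115 and 118 CPM in young libraries, with a log2 fold change of 1.01 and an adjusted p of 0.171. It overlaps Hdac7 on the opposite strand. Slc40a1, the iron exporter ferroportin, stood at 9.88, 8.36 and 11.2 CPM in aged and 14.2, 18.8 and 11.4 CPM in young libraries (adjusted p = 0.204), and the iron importer Slc11a2 had a log2 fold change of 0.21 (adjusted p = 0.803).

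Phosphate, sulphate and vesicular anion carriers, 8 in all, had Slc17a8 as their call and 7 positive members. The exception was Slc20a1, a sodium-dependent phosphate importer and retrovirus receptor, at 94.1, 113 and 89.4 CPM in aged and 172, 126 and 148 CPM in young libraries (-0.59, adjusted p = 0.108). Slc17a5, the lysosomal exporter of sialic acid in the same subfamily as Slc17a8, was even, between 29.9 and 35.1 CPM in all 6 libraries. The 17 carriers of protons, bicarbonate, chloride and calcium had a median of 0.40 and no call. The 9 vitamin and cofactor carriers were all positive, with a median of 0.47, or 0.16 without young 4, and no call. The folate importer Slc19a1 stood at 101, 59.3 and 73.4 CPM in aged and 25.0, 88.3 and 88.1 CPM in young libraries, and its log2 fold change went from 0.22 to -0.20 without young 4.

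Members of the Slc35 family, 22 in all and grouped as nucleotide sugar carriers and their relatives, had a median of 0.06 and no call. Slc35f2, known for the uptake of an anticancer drug, stood at 40, 31.5 and 33.5 CPM in aged and 13.4, 20.9 and 19.7 CPM in young libraries. Its log2 fold change was 0.96 with an adjusted p of 0.0548, and it was called higher without young 4 (adjusted p = 0.0444). With any other library left out Slc35f2 was not called, at edgeR adjusted p from 0.113 to 0.170. Slc35b1, which brings ATP into the endoplasmic reticulum, stood at 29.8, 22.2 and 20.3 CPM in aged and 43.8, 41.2 and 37.5 CPM in young libraries (-0.76, adjusted p = 0.0719). For each of these genes the groups did not overlap, in opposite directions.

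Organic ion carriers numbered 7, with no call. Slc22a18 stood at 13.3, 13.8 and 15.4 CPM in aged and 9.22, 8.67 and 8.64 CPM in young libraries, with a log2 fold change of 0.68 and an adjusted p of 0.0818. The organic cation carrier Slc22a3 stood at 86.2, 48.8 and 21.4 CPM in aged and 55.9, 156 and 159 CPM in young libraries, with overlapping groups (-1.25, adjusted p = 0.221). Of the 3 members with no group, the urea carrier Slc14a1 had the highest level per kb, at 251, 152 and 159 CPM in aged and 147, 264 and 280.2 CPM in young libraries. A further 5 members carry a carrier's name in their symbol without being carriers, such as the scaffold Slc9a3r1; none was called, and without them the median of the remaining 191 was 0.23.

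The members together made up 1.24, 1.03 and 1.10% of the counts in aged and 0.832, 1.11 and 1.13% in young libraries. Their median log2 fold change was 0.21, against 0.04 over all genes, with 126 positive and 70 negative. Young 4 and aged 1 stood apart in these genes. Young 4 was the lowest of the 6 libraries for 106 members, or 54.1%, against 35.2% of all genes tested, and aged 1 was the highest for 84, or 42.9%, against 26.1%. Without young 4 the members' median was 0.09, and 6 members were called higher and 2 lower (Slc38a5 and Slc29a1), against 4.93% and 2.54% of all genes. Without aged 1 the median was 0.07, and 2 members were called higher and 2 lower, against 1.79% and 0.262% of all genes. Group medians without young 4 and without aged 1 were, in that order, 0.23 and 0.24 for carboxylate, lipid and choline carriers, 0.12 and 0.17 for metal and haem carriers, and 0.09 and 0.11 for phosphate, sulphate and vesicular anion carriers. They were 0.31 and 0.25 for sugar carriers, 0.16 and 0.20 for vitamin carriers, 0.16 and 0.17 for organic ion carriers and -0.73 and -0.55 for nucleoside carriers. The scaling factor of young 4 was 0.7649, and those of the other libraries lay between 1.0414 and 1.0769.

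**Figure D4:**
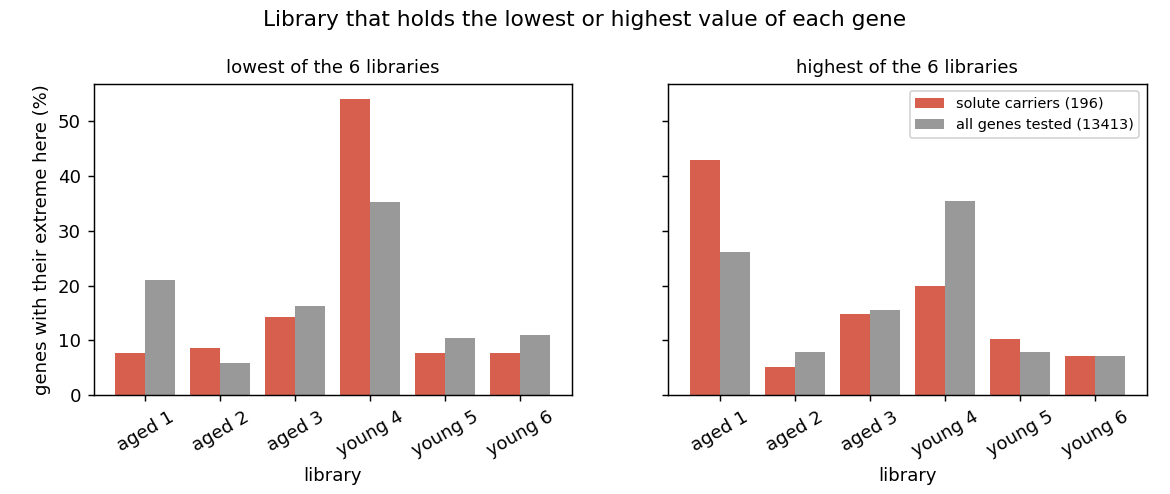
Share of genes, in percent, whose lowest (left) or highest (right) value of the 6 libraries falls in each library, for the 196 carriers in red and all 13413 genes tested in grey. Young 4 holds the lowest value of 54.1% of the carriers and aged 1 the highest value of 42.9%.

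These values moved with the GC content of the transcripts. Among the 97 members with a GC content above the median of 50.7%, young 4 was the lowest library for 72, aged 1 was the highest for 62 and the median log2 fold change was 0.40, or 0.18 without young 4. Among the 99 members at or below it, young 4 was the lowest for 34, aged 1 was the highest for 22 and the median was 0.02, or -0.02 without young 4. Across the 196 members, GC content and the deviation of young 4 from young 5 and 6 had a Pearson r of -0.53 and a Spearman rho of -0.57, as a description across genes that share libraries. For the deviation of aged 1 from aged 2 and 3 the values were 0.55 and 0.60. With trends by GC content and length taken out of every library, the members' median was 0.01 against -0.08 over all genes, that of sugar carriers 0.32 and that of nucleoside carriers -0.79. In that fit 7 members were called higher and 7 lower, 3.57% each, against 5.22% and 5.16% of all genes, and all 4 called carriers kept their call.

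**Figure D5:**
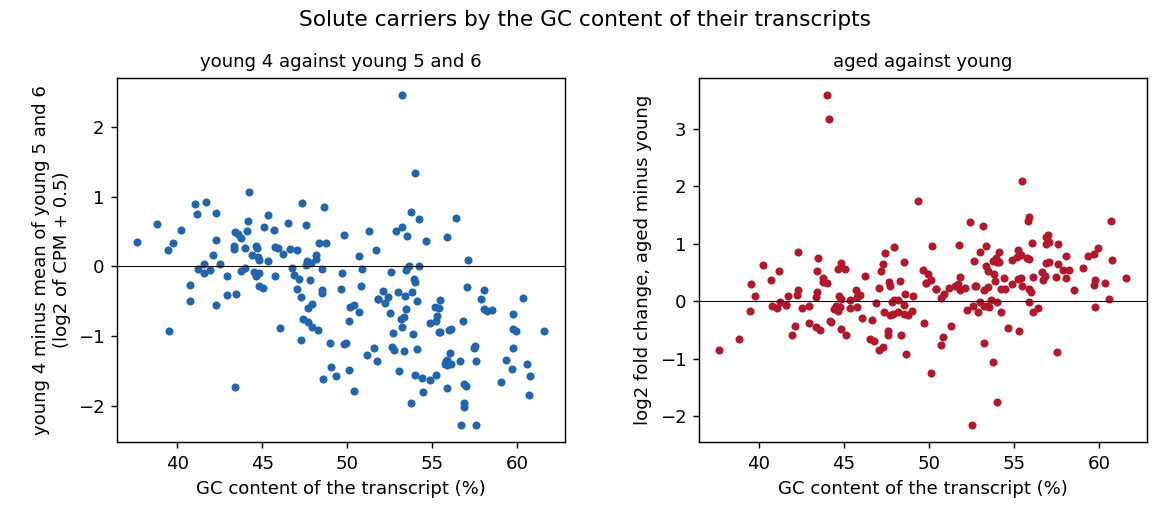
GC content of each member's transcript, in percent, against the log2 difference of young 4 from the mean of young 5 and 6 (left) and against the log2 fold change of aged minus young (right), 1 point for each of 196 members. In the left panel points fall as GC content rises (r = -0.53), and in the right panel the members above 50.7% GC have a median of 0.40 and the others of 0.02.

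Carriers of the same superfamily with other symbols, and the chaperones of the monocarboxylate carriers, were taken from a list of 48, of which 38 were tested. Of these, 2 were called higher and 0 lower by edgeR, against 4.26% and 1.50% of all genes, with a median of 0.10. At an unadjusted p under 0.05 there were 7 higher and 1 lower, against 13.9% and 11.1% of all genes, and DESeq2 called 4 higher and 1 lower, against 9.36% and 6.90%. Slco2a1, the prostaglandin importer, stood at 7.29, 5.31 and 3.53 CPM in aged and 0.795, 1.35 and 0.921 CPM in young libraries, a rise of 5.19-fold with an adjusted p of 0.0235. Pqlc3, of the PQ-loop family, stood at 93.9, 102 and 112 CPM in aged and 54.9, 43.7 and 45.6 CPM in young libraries, a rise of 2.14-fold with an adjusted p of 0.0196. With a library left out, the call of Slco2a1 held in 1 of 6 runs and that of Pqlc3 in 2.

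Markers of stem cells were present, all 10 of them, and summed to 2661 to 3279 CPM in aged and 1365 to 2365 CPM in young libraries. By edgeR 5 of these 10 were called higher and 1 lower, against 4.26% and 1.50% of all genes tested. Of markers of other cells, Cd3e, Cd3g and Gzma of the T and NK cell list and S100a9, Ngp and Camp of the neutrophil list were below 1 CPM in every library. The whole lists summed to 150.4 to 226 CPM in aged and 104 to 193 CPM in young libraries for T and NK cells, and to 4.36 to 13.4 and 7.39 to 11.6 CPM for neutrophils. Of the 2 genes of the T and NK cell list that were tested, 1 was called higher and 1 lower, against 4.26% and 1.50% of all genes tested. Klrb1c stood at 144, 117 and 209 CPM in aged and 9.70, 4.98 and 7.98 CPM in young libraries, and Nkg7 at 45.7, 33.4 and 17.5 CPM in aged and 183, 98.9 and 107 CPM in young libraries. Of 8 genes of antigens that the sort selects against or that mark blood cells in general, 3 were below 1 CPM in every library. Of the 5 tested, 1 was called higher and 2 lower, against 4.26% and 1.50% of all genes tested. Among them Cd48 stood at 2.54, 1.14 and 0.511 CPM in aged and 14.5, 9.47 and 8.59 CPM in young libraries. Cd4 was lower too, at 0.24, 0.413 and 0.186 CPM in aged and 1.99, 3.69 and 3.59 CPM in young libraries. Itgam went the other way, at 33.0, 11.5 and 9.05 CPM in aged and 1.75, 3.54 and 2.41 CPM in young libraries. The list summed to 445 to 573 CPM in aged and 418 to 534 CPM in young libraries. Most of that was Ptprc, at 407, 558 and 497 CPM in aged and 514, 396 and 423 CPM in young libraries. The 10 macrophage genes summed to 46.1 to 49.8 CPM in aged and 50.8 to 78.5 CPM in young libraries, and the 8 erythroid genes in the table to 134 to 144 and 84.8 to 223 CPM. The 6 megakaryocyte genes summed to 214 to 1011 CPM in aged and 668 to 1062 CPM in young libraries, the 7 endothelial genes to 243 to 287 and 156 to 213 CPM, and the 7 stromal genes to 6.45 to 10.2 and 5.49 to 56.1 CPM. By edgeR 1 of 9 tested macrophage genes and 1 of 5 tested endothelial genes were called higher, against 4.26% of all genes. Called lower were 1 of 5 tested megakaryocyte genes and 1 of 4 tested stromal genes, against 1.50% of all genes. Within the megakaryocyte list Itga2b stood at 562, 116 and 119 CPM in aged and 100.2, 313 and 399 CPM in young libraries. Pf4 stood at 322, 100.5 and 22.9 CPM in aged and 479, 438 and 530.0 CPM in young libraries. Ppbp stood at 5.47, 6.30 and 6.22 CPM in aged and 38.7, 21.6 and 20.6 CPM in young libraries. For Pf4 and Ppbp, but not for Itga2b, every young library lay above every aged one. The part of such cells in the carriers' values was not tested, and in pooled cells fewer cells of a type and less RNA per cell cannot be told apart.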

How the data were processed

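RNA-seq counts of 6 libraries of sorted stem cells were used, 3 aged and 3 young, grouped by sample title. Per the labels' protocols, libraries were made with the SMART-Seq v4 kit, which does not mark strand, and read as single reads. The authors deposited whole-number counts per gene, with no scaling, and gene lengths in kb. The submitters' processing notes name edgeR, HTSeq 0.11.1, STAR 2.6.0, Trimmomatic and the build mm10, without roles; annotation and counting mode: not given in the sources used here. Library totals lay between 16452829 and 21918658 counts, where 3 counts, the upper limit for an observed 0, equal 0.137 to 0.182 unscaled CPM (counting error only). No per-sample column was left unused.

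The fit used edgeR 4.0.16 in R 4.3.3 (filterByExpr, TMM, estimateDisp, glmQLFit, glmQLFTest; age as the only term), with Benjamini-Hochberg adjustment over all 13413 genes tested and a threshold of 0.05. Printed CPM are TMM-scaled with no pseudocount; the 2 CPM threshold used unscaled CPM. Deviations of single libraries used log2 of CPM + 0.5. GC content came from GENCODE transcripts, promoters from RefSeq. On counts simulated for this comparison over 13223 genes, 77 of 100 genes changed 4-fold were called, 12 of 98 changed 2-fold and 7 of 13025 unchanged ones, so many changes near 2-fold may be missed. The simulated counts held neither the low scaling factor of young 4 nor a trend by GC content, so the rates in the real libraries may differ.

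Named genes are the called members, the 10 uncalled with the smallest p, the 2 of highest CPM per kb in each group, those next to the threshold and a list of known carriers; not all are printed. Slc37a3 and the genes in the closing observations were added after their values were seen. Members and lists were chosen with earlier results of these data known. Alternatives were other scalings and filters, other member thresholds, DESeq2 1.42.0, limma-voom (limma 3.58.1) with and without quality weights, removal of GC and length trends (splines with 4 degrees of freedom), and libraries left out. The result of 1 marker list is not reported here.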

Additional observations from a re-analysis of the deposited data

How the results depend on the processing

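The 4 higher and 0 lower calls became 2 and 0 with no scaling, 6 and 2 without a filter, 16 and 9 with DESeq2, 4 and 2 with limma-voom, 28 and 18 with its quality weights, 7 and 7 with GC and length trends removed, and 6 and 2 with young 4 and aged 2 both left out. With a library left out, 1 to 6 were higher and 0 to 2 lower. Over all genes, the higher and lower shares were 4.02% and 0.992% with no scaling and 2.88% and 1.57% without a filter. They were 9.36% and 6.90% with DESeq2, 4.32% and 1.77% with limma-voom, and 17.3% and 13.2% with its quality weights. With trends removed they were 5.22% and 5.16%, with both libraries out 3.21% and 1.60%, and at 5 CPM 3.41% and 0.751%. With a library left out they ran from 0.517% to 4.93% and from 0.0218% to 2.54%. For other carriers, 2 higher and 0 lower became 1 and 0 at 5 CPM, 4 and 1 with DESeq2, 11 and 2 with quality weights, 2 and 1 with trends removed, 2 and 1 with both libraries out, and 0 to 2 higher with 1 library out. Over all genes, calls were 2181 with DESeq2, 4094 with quality weights, 1365 with trends removed, and 74 (without young 5) to 1029 (without young 4) with a library out, against 772.

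No scaling moved the median of all genes from 0.04 to 0.20. Group medians moved as follows. With trends removed, where the median of all genes was -0.08, they were 0.14 for carboxylates (0.35 as fitted), 0.03 for metals, -0.10 for Slc25, -0.79 for nucleosides, -0.02 for Slc35, 0.06 for organic ions, -0.16 for genes with a carrier-derived symbol and 0.20 for protons and other ions. With quality weights they were 0.08 for metals, -0.09 for Slc25 and 0.11 for sugars. With no scaling they were 0.09 for Slc25, 0.26 for Slc35 and 0.59 for protons and other ions, and with upper-quartile scaling 0.04 for Slc25 and 0.14 for Slc35. For protons and other ions the 5 CPM filter gave 0.57 and both libraries out 0.53. With a library left out, medians ranged from 0.12 to 0.38 for metals, -0.10 to 0.03 for Slc25, -0.04 to 0.14 for Slc35, 0.16 to 0.52 for organic ions and 0.25 to 0.75 for sugars. Slc2a4rg-ps reversed with quality weights (0.68, adjusted p = 0.0368). Over 54 named genes and 16 settings, 775 of 855 values kept their call or stayed uncalled, 65 became called and 14 lost a call. Among the 775, the sign of 48 changed with neither value past the threshold. The causes were not tested. No paired analysis was possible because no replicate number occurs in both groups. Low counts limit the precision of genes near 2 CPM.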

Other observations

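Of the 178 solute carrier genes below 2 CPM, 31 had enough counts to be tested, and 2 were called higher and 1 lower by edgeR, against 4.26% and 1.50% of all genes tested. They were singled out after their values were seen. Slc27a2, a fatty acid carrier, stood at 1.63, 1.24 and 2.79 CPM in aged and 0.398, 0.548 and 0.263 CPM in young libraries (adjusted p = 0.0460). The creatine importer Slc6a8 stood at 0.959, 0.722 and 1.25 CPM in aged and 0.318, 0.0996 and 0.0877 CPM in young libraries (adjusted p = 0.0471). Slc7a2, an importer of cationic amino acids, stood at 0.479, 0.516 and 0.371 CPM in aged and 1.67, 1.40 and 1.62 CPM in young libraries (adjusted p = 0.0371). With a library left out, the calls of Slc6a8 and Slc7a2 held in 1 of 6 runs each and that of Slc27a2 in 0. A further 4 of the 178 had 0 counts in all 6 libraries.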
